A study of Arabidopsis thaliana with 4 samples.

Results

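Gene expression in roots of Arabidopsis thaliana after 48 h without potassium was compared with that in roots kept on potassium for the same time. This early comparison uses 2 of the 4 Affymetrix ATH1 arrays of the study, 1 from starved and 1 from control roots. It covers every probe set, other than the array's own control probe sets, whose signal reached the 40th percentile on at least 1 of those 2 arrays, which were 14162 of 22746. With 1 array a group there is no replicate check and no test. Each difference below is that between 2 arrays, and the number of arrays limits its precision.

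Both groups held roots of Col-0, the common laboratory accession, from 4 to 5 week-old plants in hydroponic culture, in which the roots hang in liquid medium. Starved plants were moved to a solution in which 0.5 mM phosphoric acid and 1.25 mM nitric acid stood in for the potassium salts. Control plants were moved to a fresh solution with 0.5 mM potassium dihydrogen phosphate and 1.25 mM potassium nitrate. All plants shared the transfer itself, a light period of 16 h, 22 °C, 70% humidity and 1.0 mM calcium nitrate. The labels describe each sample as a mix of roots from plants of that age range and give no number of plants, and the solutions differed in acid as well as in potassium. The remaining arrays, from starved and control roots at 96 h, were used only to look up the same probe sets at a later time.

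Potassium is the main inorganic cation of plant cells, where it sets membrane voltage, balances anions and drives the turgor by which cells expand. Roots that run short of it are known to induce high-affinity uptake, to make reactive oxygen species, to use ethylene and jasmonate signals and to alter root hair and lateral root growth. Cell expansion itself depends on proteins that loosen the wall, on polysaccharides delivered by secretion and on calcium signals.

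The arrays had been scaled alike by the authors. Their median signals were 46.8 and 47.2 for starved and control roots at 48 h, and 47.85 and 47.02 for starved and control roots at 96 h. The starved 48 h array stood apart in a ribosomal RNA control. Its 25S ribosomal RNA probe set read 795, against 58.7 on the control 48 h array, and 60.8 and 73.1 on the starved and control arrays at 96 h. The 18 spiked hybridisation controls read higher on the starved 48 h array for 18 of 18, at 1.09 to 1.64 times the control array with a median of 1.21. Signal ratios of 3′ to 5′ probe sets, a sign of RNA integrity, were 1.17 in starved and 1.23 in control roots for actin, 1.08 and 0.936 for GAPDH, and 1.24 and 1.56 for ubiquitin. The part of these array differences in the gene values below was not tested. The nuclear photosynthesis genes fixed as markers of green tissue were measured for 10 members, with summed signals of 816 in starved and 763 in control roots. All 4 root hair markers measured passed the filter. Named probe sets covered few markers of the endodermis, meristem and root cap, so these cell types could not be checked.

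Most transcripts differed little. On the log2(signal + 16) scale, where 16 is a constant added to damp noise at low signal, 11924 probe sets, or 84.2%, were within 1.25-fold of each other. A further 1880 lay between 1.25-fold and 1.5-fold. Each fold given for a compared probe set is a ratio of signal + 16, which is smaller than the ratio of its printed signals. The difference, starved minus control, had a median of -0.01 and an SD of 0.24, and its 1st and 99th percentiles were -0.62 and 0.61. Counting differences of 1.5-fold or more, 176 probe sets (1.24%) were higher in starved roots and 182 (1.29%) lower, 358 (2.53%) in all. At 2-fold or more there were 9 (0.0636%) upwards and 15 (0.106%) downwards. At 96 h the same probe sets spread more widely, with an SD of 0.29, and 330 (2.33%) were higher and 374 (2.64%) lower by at least 1.5-fold.

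**Figure D1:**
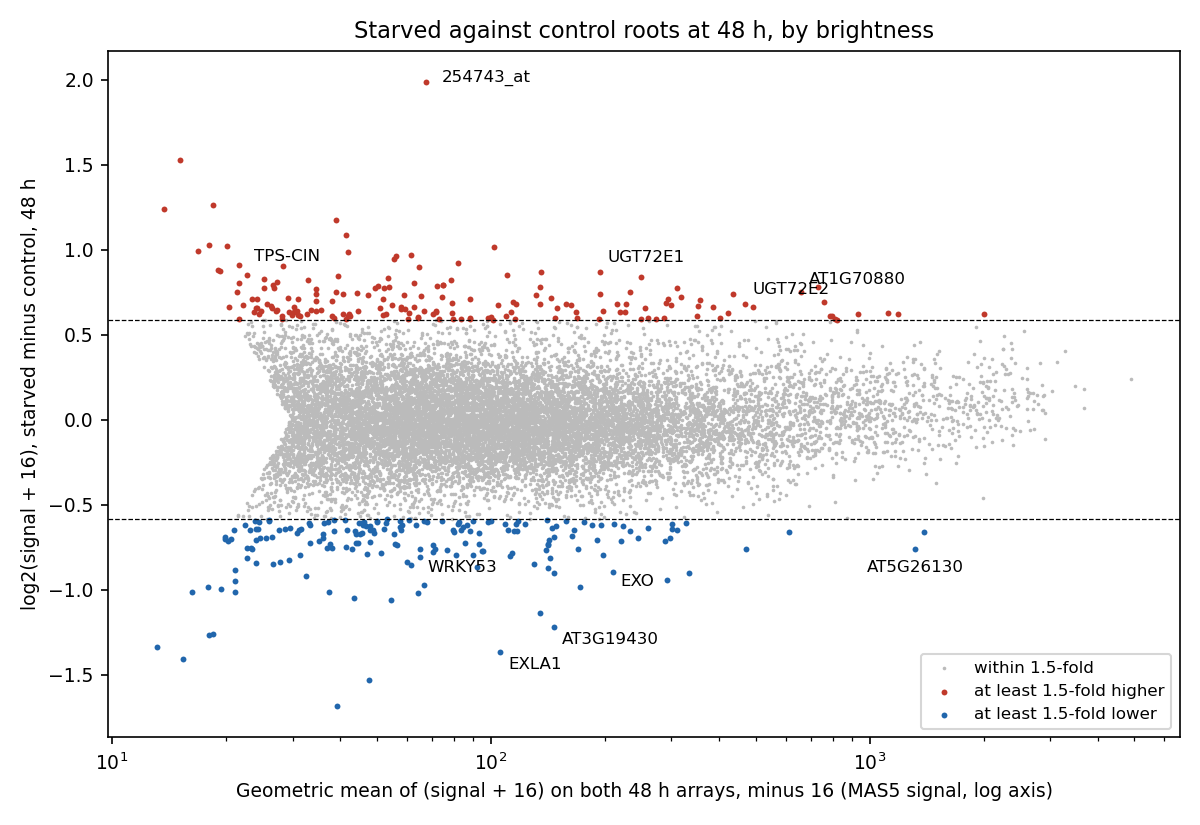
Log2 difference (starved minus control, 48 h) of each of the 14162 probe sets against its geometric mean signal (log axis), each dot a probe set, with the 1.5-fold limits as lines and some of the named genes marked. The cloud is widest at low signal, and its edges hold 176 probe sets on the higher and 182 on the lower side.

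Dim probe sets reached 1.5-fold more often than bright ones. In 5 classes of equal size, ordered by mean signal, the SD of the difference was 0.30, 0.24, 0.22, 0.22 and 0.21 from the dimmest to the brightest. The dimmest class, with mean signals from 13.2 to 47.1, held 69 higher and 74 lower probe sets, 5.05% of its members. The brightest class, from 237 to 4901, held 31 higher and 14 lower, 1.59% of its members. At 96 h the brightest class was instead the widest, with an SD of 0.32, and the dimmest stood at 0.30.

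The near balance of higher and lower probe sets did not hold among the brightest signals. Of 1185 probe sets with a mean of 500 or more, 12 differed by 1.5-fold or more upwards and 3 downwards. After quantile or cyclic loess normalization, which align the arrays along the signal range, these counts were 4 and 4 in both cases. Those bright probe sets had a median difference of 0.05 as deposited, -0.01 after quantile normalization and 0.01 after cyclic loess, so the excess of higher bright probe sets depended on the scaling. Among 5700 of middle signal, from 100 to 500, 50 were higher and 52 lower. Among 7277 with a mean below 100, 114 were higher and 127 lower. A dim side was common: 63 of the 176 higher and 62 of the 182 lower probe sets were below the 40th percentile on 1 of the 2 arrays, as were 8 of 9 and 10 of 15 of those past 2-fold. That percentile was a signal of 29.6 on each of the 48 h arrays.

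**Figure D2:**
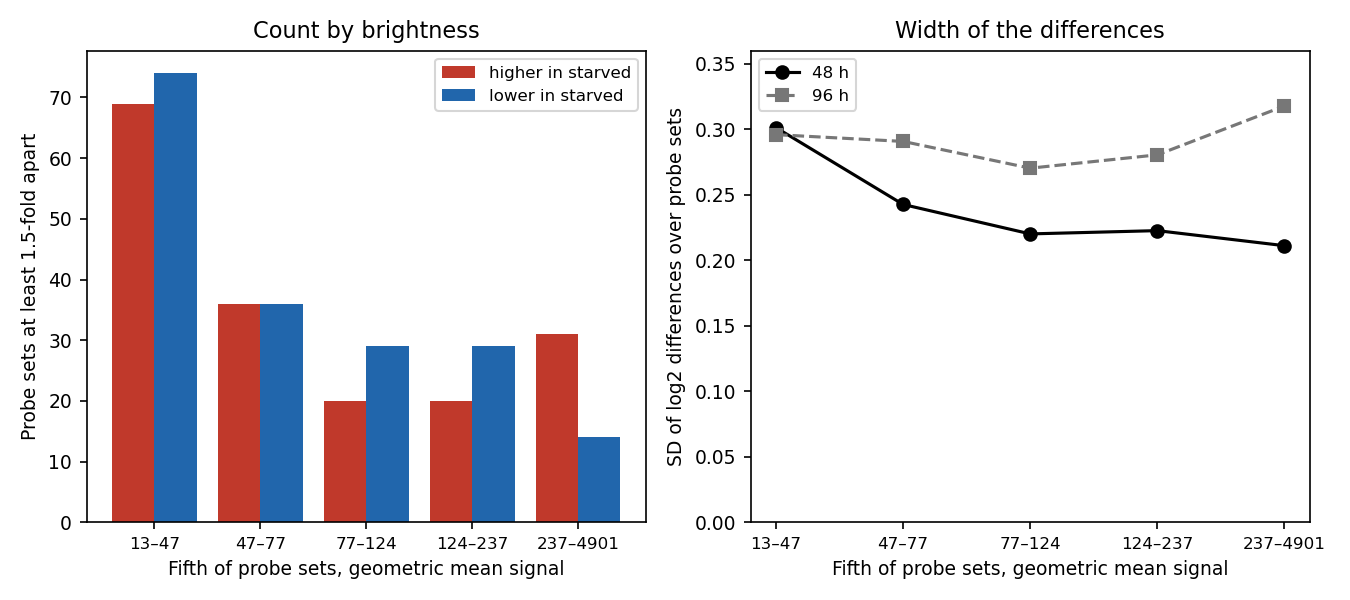
Probe sets past 1.5-fold at 48 h, higher and lower in starved roots (bars, left), and the SD of the log2 difference at 48 h and 96 h (lines, right) in 5 classes of equal size from dim to bright mean signal. The dimmest class holds 143 of them and the brightest 45.

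Of the 14162 probe sets, 7700 could be tied to exactly 1 gene. They stood for 7619 genes, of which 99 (1.3%) reached 1.5-fold upwards and 101 (1.33%) downwards. The median gene differed by -0.01 on the log2 scale and 48.6% of genes were above 0, which is the background for each gene group below. Only 1048 of these genes carry a symbol rather than a locus number in the reference used. Of those, 15 reached 1.5-fold upwards and 19 downwards, and all 34 are named below. With a pseudocount of 64 in place of 16, only 31 probe sets remained 1.5-fold higher and 28 lower, and most of the dim genes named here were then under 1.5-fold. A root sample holds many cell types, and a lower value can come from fewer cells of a type or from less RNA per cell, which cannot be told apart.

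The list with the most members at least 1.5-fold lower was that of early responders to touch and wounding, genes that report mechanical and calcium signals within minutes in other settings. Of its 12 members past the filter, 0 reached 1.5-fold upwards and 5 downwards, with 2 above 0, 10 below 0 and a median of -0.28. Over all 7619 genes 1.3% reached 1.5-fold upwards and 1.33% downwards. Lists and their members were chosen with earlier results of these data known, so this count is only a description. EXLA1 (AT3G45970), an expansin-like wall protein, read 59.9 in starved roots, against 179 in control roots, 2.58-fold lower. EXO (AT4G08950), the EXORDIUM protein of brassinosteroid-promoted growth, read 149 in starved and 292 in control roots, 1.86-fold lower. Both signals of EXLA1 and EXO lay above the array medians. WRKY53 (AT4G23810), a transcription factor of senescence and defence, read 45.2 in starved and 91.1 in control roots. CML38 (AT1G76650), a calmodulin-like calcium sensor, read 54.9 in starved and 104.7 in control roots. The wall enzyme XTH33 (AT1G10550) read 44.0 in starved and 74.7 in control roots, a difference of -0.59 that fell short of 1.5-fold under equal medians, quantile or cyclic loess scaling. Members counted again in other groups include EXLA1 (expansins), XTH33 (XTH genes), CML38 (calcium signalling) and WRKY53 (WRKY factors).

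The rest of that group differed less. ATL8, a RING-type ubiquitin ligase, differed by -0.35, and the ubiquitin ligases PUB22, PUB23 and PUB24 by -0.20, -0.13 and -0.09. The zinc finger repressor STZ, at 0.01, and WRKY6, at 0.11, were the members above 0. At 96 h 9 of the 12 were below 0, with a median of -0.26. ATL8 then stood at -1.70, with 35.02 in starved and 149.9 in control roots, while CML38 was higher in starved roots, with 422 in starved and 313 in control roots.

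Calcium signalling genes other than CML38 were close to the control or below it. Of 9 members past the filter, 0 reached 1.5-fold upwards and 1 downwards, with 4 above 0, 5 below 0 and a median of -0.09. The glutamate receptor-like channel GLR3.3 read 47.4 in starved and 66.7 in control roots, and the calmodulin-like protein CML42 182 in starved and 236 in control roots. Of the 7 IQD proteins, which bind calmodulin at microtubules and membranes, 1 was above 0. IQD26 (AT3G16490) read 38.6 in starved and 19.8 in control roots, 1.53-fold higher, and IQD19 read 50.7 in starved and 79.2 in control roots, a difference of -0.51.

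Wall-loosening expansins lay on both sides of the control. Of 12 members past the filter, 1 reached 1.5-fold upwards and 2 downwards, with 5 above 0, 7 below 0 and a median of -0.13. The second of the lower ones, beside EXLA1, was its relative EXLA3 (AT3G45960), with 21.6 in starved and 59.99 in control roots, 2.02-fold lower. EXPA9 read 101 in starved and 159 in control roots, a difference of -0.58 just inside the 1.5-fold limit. EXPA18 (AT1G62980), an expansin of root hair cells, went the other way with 212 in starved and 135 in control roots. EXPB1, a beta-expansin, read 90.2 in starved and 58.1 in control roots, a difference of 0.52. At 96 h 8 of the 12 expansins were above 0, with a median of 0.33.

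Root hair markers were above the control. These are the expansins EXPA7 and EXPA18, the hydrolase XTH26 and SCN1, a regulator that confines hair initiation to 1 site. All 4 measured were above 0, with a median of 0.42 and 1 at least 1.5-fold higher. EXPA7 read 201 in starved and 132 in control roots, a difference of 0.56, and XTH26 77.2 in starved and 60.04 in control roots, a difference of 0.29. SCN1 read 407 in starved and 398 in control roots. At 96 h EXPA18, EXPA7 and XTH26 were again above the control, by 0.58, 0.32 and 0.42, and SCN1 was at -0.07. EXPA18, EXPA7 and XTH26 also belong to the expansin and XTH groups.

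**Figure D3:**
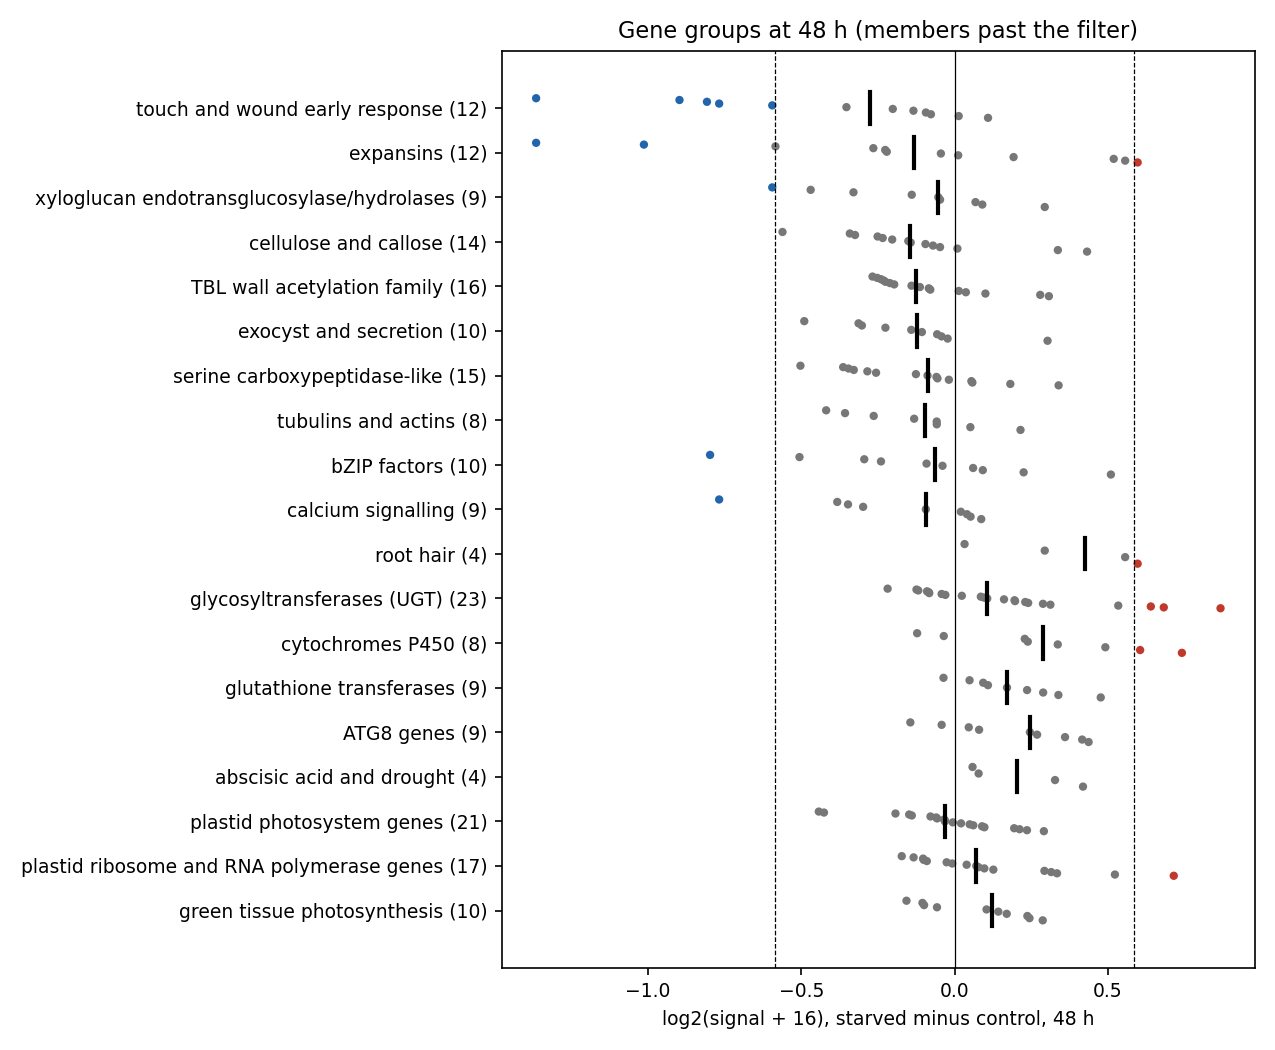
Log2 differences at 48 h (starved minus control) of the members of selected gene groups, each dot a gene past the filter and each bar the group's median, with 0 and the 1.5-fold limits as lines and the number of members in brackets. Members of the touch and wound group lie mostly below 0, and those of the root hair group lie above it.

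The cellulose and callose, XTH, TBL wall acetylation and secretion lists had medians slightly below 0, and XTH33 was their only member past 1.5-fold. Of 14 genes in the cellulose and callose list, 3 were above 0 and 11 below 0, with a median of -0.15. They are COB, cellulose synthase-like genes and endoglucanases of the GH9 family. The list holds no cellulose synthase or callose synthase, so it does not report on these enzymes. GH9B13 read 441 in starved and 659 in control roots, a difference of -0.56. The 4 CSLC genes, which make the xyloglucan backbone, were all below 0, at -0.34 for CSLC04, -0.32 for CSLC5, -0.20 for CSLC12 and -0.07 for CSLC6. Of the 9 XTH genes, whose enzymes cut and rejoin xyloglucan, 3 were above 0 and 6 below 0, with a median of -0.05.

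Of 16 TBL genes, a family that acetylates wall polysaccharides, 5 were above 0 and 11 below 0, with a median of -0.13. TBL36 had the lowest difference of the family, -0.27, with 585 in starved and 707.5 in control roots, and TBL37 the highest, 0.31. Of 10 genes for the exocyst, the complex that tethers secretory vesicles at the plasma membrane, and for other secretion steps, 1 was above 0 and 9 below 0, with a median of -0.12. The exocyst subunits SEC6 and SEC10 differed by -0.49 and -0.31, and SEC15A by 0.30. Among 8 tubulin and actin genes 2 were above 0 and 6 below 0, with a median of -0.10. TUB5 read 361 in starved and 467 in control roots, and ACT11 86.7 in starved and 121 in control roots. Of 15 serine carboxypeptidase-like genes, whose secreted proteins act as proteases or acyltransferases, 4 were above 0 and 11 below 0, with a median of -0.09, and SCPL45 read 144.5 in starved and 211.5 in control roots.

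At 96 h these groups differed among themselves. There 9 of the 14 genes in the cellulose and callose list and 7 of the 8 tubulin and actin genes were above 0, with medians of 0.11 and 0.16. The TBL group had 8 on each side, with a median of -0.02. The secretion group had a median of -0.14 with 6 of 10 below 0, and the XTH group one of -0.13 with 6 of 9 below 0. Of the serine carboxypeptidase-like genes 11 of 15 were then above 0, with a median of 0.07.

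Other wall and growth genes past 1.5-fold were mostly dim or of middle signal. The pectin enzyme list had 2 members past the filter, both below 0, with a median of -0.51. Of these, the pectin methylesterase gene ATPMEPCRB (AT4G02330) read 35.4 in starved and 72.4 in control roots, 1.72-fold lower. At 96 h ATPMEPCRB was higher in starved roots, at 0.545, with 34.6 in starved and 18.7 in control roots. The multicopper oxidase-like genes sks15 (AT4G37160) and sks16 (AT2G23630), relatives of the growth-direction gene SKU5, read 64.9 and 60.3 in starved roots, against 109 and 104 in control roots. cwINV6 (AT5G11920), annotated as a fructan exohydrolase, read 104 in starved and 196 in control roots, 1.76-fold lower. SP1L2 (AT1G69230), a microtubule protein of the SPIRAL1 family, read 112 in starved and 177 in control roots. Its relatives SP1L3, SP1L4 and SP1L5 were above the control, by 0.07, 0.51 and 0.34, and the SP1L2 difference of -0.59 was under 1.5-fold after the same rescalings as that of XTH33. CCOAMT (AT1G67980), a methyltransferase of phenolic precursors, read 25.7 in starved and 54.4 in control roots.

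**Figure D4:**
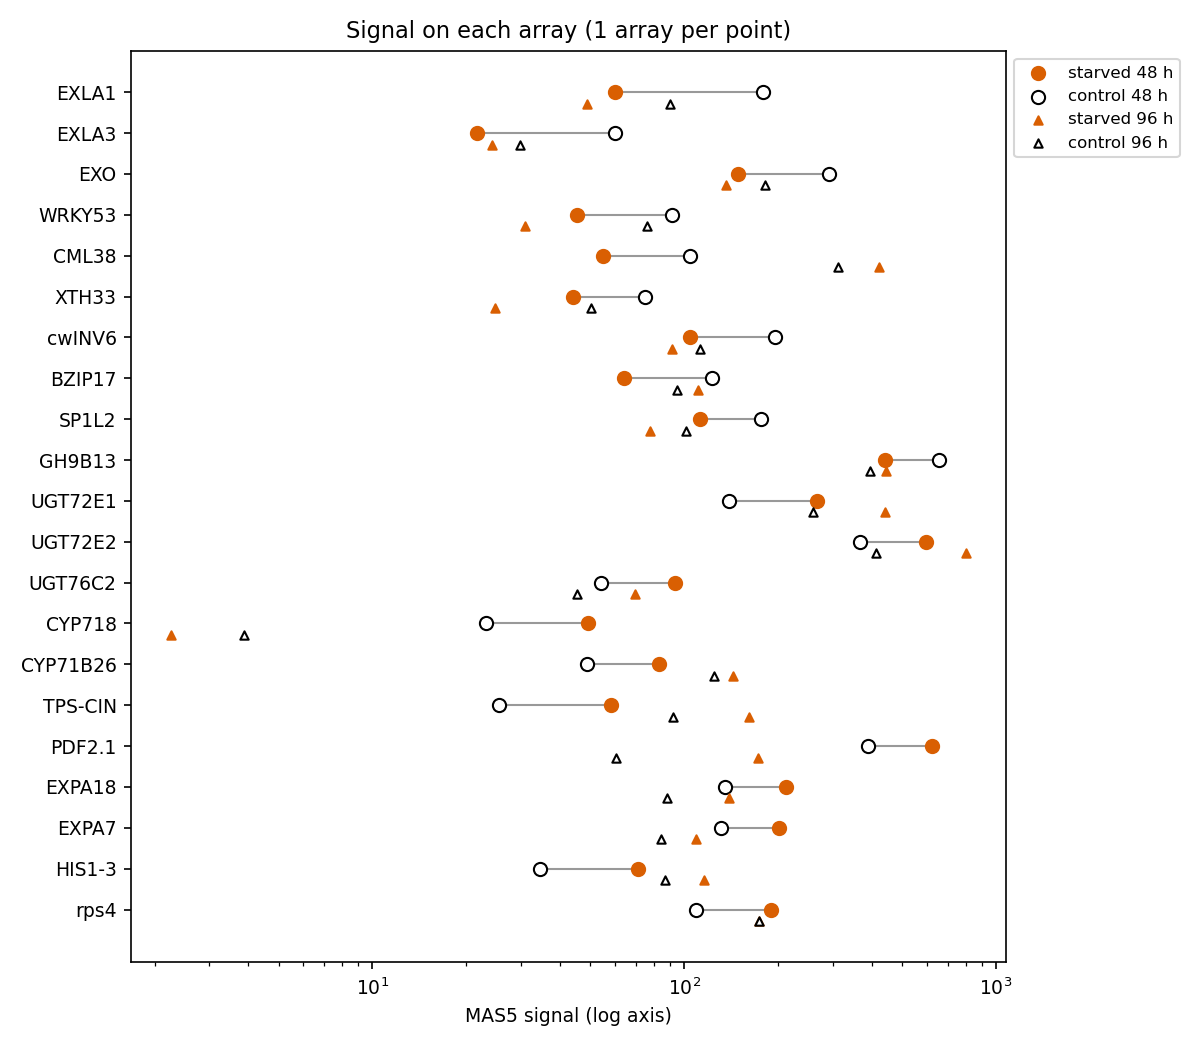
Signals on the 4 arrays (log axis) for selected genes, 1 gene a line, with 48 h as joined circles and 96 h as triangles, filled for starved and open for control roots. EXLA1 stands at 59.9 in starved and 179 in control roots at 48 h, and UGT72E1 at 267 and 139.

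On the higher side the largest family was that of the UGT glycosyltransferases, enzymes that attach sugars to small molecules. Of 23 past the filter, 3 reached 1.5-fold upwards and 0 downwards, with 15 above 0, 8 below 0 and a median of 0.11. UGT72E1 (AT3G50740) and UGT72E2 (AT5G66690), which glucosylate lignin precursors, read 267 and 598 in starved roots, against 139 and 366 in control roots. Their neighbour in the family, UGT72E3, read 52.1 in starved and 48.2 in control roots. UGT76C2 (AT5G05860), which inactivates cytokinins, read 93.4 in starved and 54.2 in control roots, 1.56-fold higher, and UGT73B1 read 58.3 in starved and 35.3 in control roots. At 96 h UGT72E1, UGT72E2 and UGT76C2 were again above the control, by 0.73, 0.93 and 0.49, while the group's median was -0.02.

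Further enzymes of lignin and secondary metabolism were on both sides. Of 9 genes of xylem, lignin and the stele, 2 were at least 1.5-fold higher, both of them UGT72E genes, and 1 at least 1.5-fold lower, CCOAMT, with 7 above 0 and a median of 0.09. CCR2, a cinnamoyl-CoA reductase, read 37.6 in starved and 24.3 in control roots. TPS-CIN (AT3G25830), a cineole synthase, read 58.3 in starved and 25.4 in control roots, 1.79-fold higher, and a near-identical neighbouring gene may share its probe set.

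The cytochrome P450 and glutathione transferase genes past the filter were mostly above 0, with small steps. Of 8 cytochromes P450 past the filter, 2 reached 1.5-fold upwards and 0 downwards, with 6 above 0 and a median of 0.29. Of these 8, 7 belong to the CYP71B family, so the list says little of other P450 families. Without the filter on low signal the median of the 24 measured P450 genes was -0.01, so the shift depended on that filter. CYP718 (AT2G42850) read 49.3 in starved and 23.1 in control roots, 1.67-fold higher. It passed the filter through the starved array alone, and at 96 h it read 2.26 in starved and 3.87 in control roots. CYP71B26 (AT3G26290) read 82.8 in starved and 48.9 in control roots, 1.52-fold higher, and its relative CYP71B37 119 in starved and 80.2 in control roots. Of 9 glutathione transferases, which couple glutathione to reactive compounds, none was past 1.5-fold, 8 were above 0 and 1 below 0, with a median of 0.17. GSTF4 had the widest difference of them, at 133 in starved and 91.1 in control roots. At 96 h 4 of the 9 glutathione transferases were above 0 and 5 below 0, with a median of -0.04. The 8 P450 genes then had 6 above 0 and a median of 0.12.

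The ATG8 genes, whose proteins coat the autophagosome that carries cell contents to the vacuole, were another group of small differences. Of 9 members, 0 were past 1.5-fold, 7 were above 0 and 2 below 0, with a median of 0.25. ATG8G read 138 in starved and 97.5 in control roots, APG8H 707 in starved and 526 in control roots, and ATG8H 245 in starved and 187 in control roots. ATG8E, at -0.14, and ATG8B, at -0.04, were below the control. At 96 h 3 of the 9 were above 0, with a median of -0.03. Several ATG8 genes are close in sequence, and the files do not show how far their probe sets share signal.

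Apart from HIS1-3, the few hormone and stress genes past the filter differed little at this time. The 4 abscisic acid and drought genes past the filter were above 0, with a median of 0.20 and none past 1.5-fold. The dehydrin COR47 read 2213 in starved and 1760 in control roots, and AT1G54410, annotated as the dehydrin HIRD11, 2756 in starved and 2058 in control roots. HIS1-3 (AT2G18050), a linker histone known to respond to drought, read 71.3 in starved and 34.6 in control roots, 1.73-fold higher. The 4 auxin genes past the filter, of 14 measured, were all above 0. GH3.17, which conjugates auxin to amino acids, was the highest, with 212 in starved and 159 in control roots. Of 4 reactive oxygen genes, 3 were above 0, with CCS, the copper chaperone of superoxide dismutase, highest at 0.23. Of the ethylene and jasmonate lists only 2 members each passed the filter, EIN3 and RTE1, and MYC3 and MYC4, with medians of -0.06 and 0.14. Of 6 cytokinin genes 0 passed. With so few members, these lists cannot show whether hormone responses changed.

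Defence genes were uneven. PDF2.1 (AT2G02120), a defensin, read 624 in starved and 389 in control roots, 1.58-fold higher. The defensin PDF2.5 differed by -0.17, and SAG101, a partner of defence signalling, by -0.50, with 32.3 in starved and 52.5 in control roots. Over the 7 salicylic acid and defence genes the median was 0.00, with 3 above 0 and 4 below 0.

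Among transcription factors, BZIP17 (AT2G40950), which is released from the endoplasmic reticulum under salt and protein-folding stress, read 64.1 in starved and 123 in control roots, 1.74-fold lower. Of the 10 bZIP factors, 4 were above 0 and 6 below 0, with a median of -0.07. BZIP28 and BZIP60, which serve the same folding response, differed by -0.29 and -0.24. bZIP44 differed by -0.51 and HYH, a relative of the light regulator HY5, by 0.51, with 45.2 in starved and 27.0 in control roots. At 96 h BZIP17 was at 0.19, BZIP28 at 0.00 and BZIP60 at -0.08. Of 5 WRKY factors, WRKY53 alone was past 1.5-fold, and the others lay between -0.08 and 0.11.

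The few ion transport genes with a named probe set past the filter differed little. Of 6 potassium transport genes with a named probe set, 1 passed the filter, the cation/proton exchanger CHX16, at 43.1 in starved and 46.3 in control roots. The other members, all of the same CHX family, read at most 22.1 on either array. Probe sets of the well-known high-affinity carriers and channels are not named in the annotation used, and nothing is said of them here. Of 7 nitrate-related genes past the filter, 0 were past 1.5-fold, and differences ran from -0.15 for AT1G72125, annotated as NPF5.13, to 0.31 for AT1G33440, annotated as NPF4.4. The glucosinolate carriers GTR1 and GTR2, of the same family, differed by -0.13 and 0.05.

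The 5 iron and zinc genes lay between -0.15 and 0.24, with ZIP9, a metal transporter, the highest and PYE, a regulator of the iron response, at 0.09. The 3 genes for a membrane subunit of the vacuolar-type proton pump, VHA-A1, VHA-A2 and VHA-A3, were below 0, at -0.19, -0.21 and -0.09. Of 8 sugar transport and starch genes, 2 were above 0 and 6 below 0. The vacuolar sugar carrier SWEET16 read 225 in starved and 275 in control roots, a difference of -0.27, and stood at -0.86 at 96 h.

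Sulfur and nitrogen assimilation genes past 1.5-fold were dim on at least 1 array or moderate in size. OASA2 (AT3G22460), annotated as a cysteine-forming O-acetylserine (thiol) lyase, read 151.5 in starved and 88.4 in control roots, 1.60-fold higher. At 96 h OASA2 was lower in starved roots, at -0.31, with 94.8 in starved and 121 in control roots. APS3 (AT4G14680), an ATP sulfurylase that starts sulfate assimilation, read 28.6 in starved and 51.1 in control roots, 1.505-fold lower. Its difference of -0.59 lay as close to the 1.5-fold limit as that of SP1L2, and its value under the other scalings is not given here. GAT1_2.1 (AT1G15040), annotated as a glutamine amidotransferase, read 21.7 in starved and 43.1 in control roots, and was at -0.90 at 96 h.

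The remaining genes with a symbol past 1.5-fold fall into no group above. CP5 (AT1G64720) read 489 in starved and 303 in control roots, 1.58-fold higher. ARPN (AT2G02850), a plantacyanin, read 380 in starved and 226 in control roots, 1.64-fold higher. NDB3 (AT4G21490), an external NAD(P)H dehydrogenase of mitochondria, read 40.7 in starved and 21.0 in control roots. Fes1B (AT3G53800), an exchange factor of heat shock proteins, read 16.8 in starved and 42.5 in control roots. TROL (AT4G01050), a thylakoid rhodanese-like protein, read 10.1 in starved and 36.7 in control roots. POLA3 (AT5G41880) and TOPII (AT3G23890), of DNA replication and topology, read 34.1 and 48.3 in starved roots, against 60.8 and 82.6 in control roots. Apart from CP5 and ARPN, all of these had mean signals below 100.

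Plastid-encoded transcripts were close to balanced as a whole. Of 58 plastid genes past the filter, 30 were above 0 and 28 below 0, with a median of 0.02 and summed signals of 13221 in starved and 12507 in control roots. Only rps4, a plastid ribosomal protein gene, was past 1.5-fold, at 189.7 in starved and 109 in control roots, and it was at 0.00 at 96 h. The 5 ATP synthase genes had a median of 0.24, with atpB at 551 in starved and 394 in control roots. The 5 cytochrome b6f genes had a median of -0.19 and the 21 photosystem genes one of -0.03. At 96 h the 5 ATP synthase genes were all below 0, with a median of -0.36. Nuclear photosynthesis genes gave 6 above 0 and 4 below 0 at 48 h, with a median of 0.12.

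Most bright genes past 1.5-fold are known here by locus alone. AT1G70880 read 860 in starved and 505 in control roots, 1.68-fold higher, and AT1G75800 967 in starved and 591 in control roots, 1.62-fold higher. AT5G44020, AT4G27450 and AT3G45160 were 1.54-fold, 1.52-fold and 1.52-fold higher, and all 3 were under 1.5-fold after quantile or cyclic loess normalization. On the lower side AT5G26130 read 1007 in starved and 1714 in control roots, 1.69-fold lower, and AT1G52060 484 in starved and 774 in control roots, 1.58-fold lower. AT5G26130 was lower at 96 h too, with 37.4 in starved and 160 in control roots. AT1G26250, with the highest signals of the lower bright genes, read 1696 in starved and 2343 in control roots, a difference of -0.46 that was 0.34 at 96 h.

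At middle signal the widest differences were on the lower side. AT3G19430 read 90.4 in starved and 232 in control roots, 2.33-fold lower, and AT3G22800 118 in starved and 249 in control roots, 1.98-fold lower. Neither was lower to that degree at 96 h, where AT3G19430 was at 0.49 and AT3G22800 at -0.04. On the higher side AT4G39780 read 189 in starved and 96.0 in control roots, and AT2G42350 338 in starved and 182 in control roots, 1.83-fold and 1.79-fold higher. AT1G64370 read 567 in starved and 334 in control roots, and stayed higher at 96 h with 396 in starved and 273 in control roots.

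Among named dim genes, 7 of the 8 with the lowest differences and 7 of the 8 with the highest were below the 40th percentile on 1 of the 2 arrays. AT1G50040 read 14.9 in starved and 83.3 in control roots, 3.22-fold lower, and AT4G32800 37.4 in starved and 6.27 in control roots, 2.396-fold higher. AT2G34670 read 68.0 in starved and 23.5 in control roots, 2.125-fold higher. AT1G53450 read 6.23 in starved and 37.3 in control roots, 2.399-fold lower, and stood at 0.15 at 96 h. AT2G23700 had both readings above that percentile, with 32.9 in starved and 85.8 in control roots. At 96 h 7 of the 8 lowest were again below 0 and 7 of the 8 highest above 0, AT1G53450 and AT3G62000 being the exceptions. Of probe sets with no gene listed, 254743_at had the largest difference of all, at 150 in starved and 25.9 in control roots, 3.96-fold higher, and it was higher at 96 h as well, at 233 in starved and 16.99 in control roots. The next, 250716_at, read 36.8 in starved and 2.32 in control roots at 48 h and was at -0.44 at 96 h. On the lower side 266463_at read 21.4 in starved and 92.2 in control roots, and 265644_at 3.32 in starved and 35.2 in control roots. The value of 265644_at turned to 1.59 at 96 h.

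The arrays at 96 h share no array with those at 48 h and were not used to choose these probe sets. Of the 176 probe sets at least 1.5-fold higher at 48 h, 128 (72.7%) were also above 0 at 96 h, against 50.0% of all probe sets compared. At 96 h 32 of them (18.2%) were at least 1.5-fold higher, against 2.33% of all, and 4 at least 1.5-fold lower. Of the 182 lower ones, 106 (58.2%) were below 0 at 96 h, 24 (13.2%) at least 1.5-fold lower, against 2.64% of all, and 6 at least 1.5-fold higher.

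This carry-over varied with brightness without a steady trend. Across the 5 classes from dim to bright, 67.8%, 58.3%, 46.9%, 79.6% and 73.3% of the probe sets past 1.5-fold kept their direction at 96 h. Of all probe sets in these classes, 50.4%, 51.7%, 49.5%, 50.8% and 51.0% had the same sign at both times. The middle class, at 46.9%, thus showed no carry-over beyond that of all its probe sets. Among probe sets with a mean of 500 or more, 10 of the 12 higher ones kept it and 1 of the 3 lower ones. Among genes with a symbol, 12 of the 15 higher and 12 of the 19 lower kept their direction. Of the 9 probe sets at least 2-fold higher, 8 were again above 0 and 5 again past 1.5-fold, and of the 15 lower ones 11 were below 0 and 5 past 1.5-fold.

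**Figure D5:**
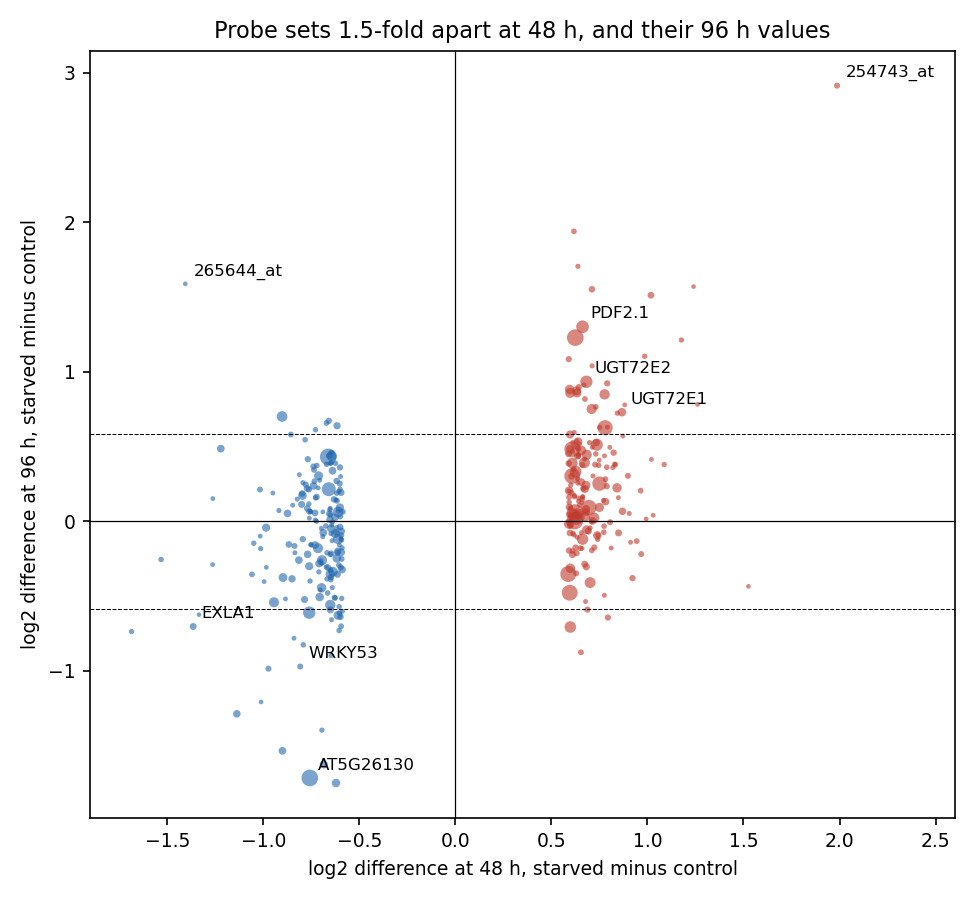
Log2 difference at 96 h against that at 48 h (starved minus control) for the 358 probe sets past 1.5-fold at 48 h, each dot a probe set whose size grows with its mean signal. The dashed lines mark 1.5-fold at 96 h; of the 176 on the higher side 128 lie above 0 at 96 h, and of the 182 on the lower side 106 lie below 0.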

How the data were processed

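RNA from roots was hybridised to Affymetrix ATH1 arrays, 1 array a group. The deposited values are linear signal intensities from MAS5, as the submitters' processing notes name it. No version, settings or genome build is given in the sources used here, so no coordinates are printed. The 2% trimmed mean was 100.01 on each array, so no further scaling was applied.

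Of 22810 probe sets, 64 controls were set aside and 8584 were below the filter, at the 40th percentile on both 48 h arrays. Differences are on the log2(signal + 16) scale, which understates changes of dim probe sets. The 1.5-fold and 2-fold limits are descriptive. Gene names came from the platform annotation: over all 22746, 13513 had 1 gene, 503 several and 8730 none. Entrez identifiers matched the RefSeq table of TAIR10.1 for 13436, and 77 kept the annotation's name. For 78 genes with several probe sets the brightest was used, and 0 of these had probe sets past 1.5-fold in opposite directions.

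The 74 gene lists hold 580 measured genes, 378 past the filter, and 46 lists had at least 3 members there. The members and lists were chosen with earlier results of these data known, and some lists after these values were seen. Genes without a list were named by rule, as the 8 highest and 8 lowest of each brightness group (limits at means of 100 and 500), and up to 4 per list by widest difference. Other list members, and all genes with a symbol past 1.5-fold, were named after their values were seen. Promoter motifs were planned but not analysed here. Python 3.11.15 with pandas 2.3.3 was used, with R 4.3.3 and limma 3.58.1 for the quantile and cyclic loess alternatives. The counting steps were tested on simulated data. Other alternatives were a pseudocount of 1 or 64, other filters and equal medians.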

Additional observations from a re-analysis of the deposited data

Results flagged for a closer look

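The 25S ribosomal RNA control probe set, which enters no comparison, read 795.5 on the starved 48 h array, against 58.7 on the control 48 h array, 13.5 times as much. It read 60.8 and 73.1 on the starved and control arrays at 96 h. What part this array's difference plays in the gene values was not tested.

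The gene sks16 (AT2G23630) was lower at 48 h and higher at 96 h, with log2 differences of -0.66 and 0.67. This difference between the times was not tested.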

How the results depend on the processing

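Counts depended most on the constant added to the signal and on the filter. With 176 higher and 182 lower probe sets past 1.5-fold in the main setting, a pseudocount of 1 gave 419 and 385, a pseudocount of 64 gave 31 and 28, no filter 398 and 372, a filter at the 60th percentile 104 and 99, and a filter on both arrays 113 and 120. Past 2-fold the same settings gave 51 and 56, 1 and 0, 22 and 23, 2 and 8, and 1 and 5, against 9 and 15. The dimmest of the 5 brightness classes held 143 in the main setting and 440, 4, 218, 75 and 44 under these settings in the same order. The brightest class held 45, against 27 (pseudocount 64), 73 (no filter) and 24 (60th percentile). Equal medians gave 193 and 170, quantile normalization 181 and 171, and cyclic loess 182 and 171 past 1.5-fold. Of 54 genes past 1.5-fold that were named by rule, 22 stayed past it under every pseudocount and scaling tried. Genes named only because they carry a symbol and were past 1.5-fold are not among the 54. List medians changed sign without the filter for class III peroxidases, at -0.144 over 7 members, and cytochromes P450, at -0.0109 over 24, and after quantile normalization for class III peroxidases, at -0.0544 over 5. The cause was not tested, other than that the filters change which probe sets are counted.

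No paired analysis was possible because each group has 1 array, so no replicate could be left out either. Precision cannot be read from single arrays. Low signals limit most of the differences past 2-fold, of which 8 of 9 higher and 10 of 15 lower had 1 array below the 40th percentile.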
